A study of Mus musculus with 2 samples.

Results

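The genes described here are 42 genes of mitosis and the kinetochore: the mitotic cyclins and their kinase, the spindle checkpoint, the chromosomal passenger complex, kinetochore subunits, spindle motors, the machinery of cytokinesis and the condensins. They were chosen by name from a list of roles, by a rule that sets no threshold on a measured value, and all 42 were found among the 26082 genes that were quantified. RNA was sequenced from primary fibro-adipogenic progenitors (FAPs), the muscle-resident mesenchymal cells that can become adipocytes or fibroblasts, sorted with surface antibodies from digested hind limb muscle of mice, for which the study names the C57BL/6 strain. Both groups carried a WT genotype and were under adipogenic differentiation, with IBMX, dexamethasone, insulin and FBS in the induction medium. The TGFBR3 OE group was transfected with plasmids meant to overexpress TGFBR3, a co-receptor for TGF-β ligands, and the control group with the vector. Each group is 1 library, so that no difference below has a replicate check, and the age and number of the mice behind each library and the share of cells that took up the plasmid are not given in the labels.

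Mitosis begins when CDK1, bound to cyclin A or B, phosphorylates a large set of proteins and the chromosomes condense. Kinetochores, built on the centromere, then attach each chromosome to spindle microtubules, and the checkpoint holds back the anaphase-promoting complex until every kinetochore is attached. That complex, with its activator CDC20, destroys securin and the B cyclins, after which the chromatids part and the cell divides. The genes for these proteins are transcribed mainly in G2 and M phase, so that their RNA is commonly read as a sign of how many cells in a culture are dividing. FAPs divide after muscle injury, and cells that become adipocytes leave the cell cycle.

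The transfected gene was examined first. Tgfbr3 had an FPKM (read count divided by exon length and by library size) of 36.9 in the library labelled TGFBR3 OE and 35.1 in the library labelled control, from 16372 and 21245 counts. Its log2 ratio of (FPKM + 1) was 0.07 and its log2 ratio relative to the median gene was −0.09, so it was not raised relative to that gene. The study also measured TGFBR3 by RT-PCR in FAPs given the plasmid or vector, which was not examined here. Directions below refer to the libraries as labelled. The counts summed to 62321027 and 83779203. The 10 FAP markers summed to 1760 and 1968 FPKM, 4 of them higher and 6 lower in the library labelled TGFBR3 OE, and the largest ratios went both ways. Ly6a stood at 1013 and 706 FPKM, whereas the collagen genes Col1a1, at 467.5 and 870, and Col3a1, at 95.8 and 199.5, were lower. Pdgfra stood at 30.5 and 32.6 FPKM, and Lum, Dpp4 and Pi16 were near 0 in both. In contrast, the 9 macrophage and leukocyte markers summed to 0.91 and 0.54 FPKM, with Adgre1, Tyrobp and Fcer1g at 0 in both libraries. The 8 endothelial markers summed to 2.46 and 2.06 FPKM, with Tek at 1.04 and 1.09, Cdh5 at 0.58 and 0.84, Kdr at 0.43 and 0.08 and Tie1 at 0 in both, and the 5 myogenic markers analysed to 1.65 and 1.30 FPKM. The 8 adipocyte markers summed to 40.0 FPKM in the library labelled TGFBR3 OE and 75.4 in the library labelled control, and 7 of the 8 had a lower FPKM in the former, among them Cfd (15.3 and 39.0), Adipoq (5.69 and 13.0) and Plin1 (1.15 and 1.98). Any part of the cells behind these marker RNAs in the values of the mitosis genes was not tested.

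The mitosis genes were expressed at low to moderate levels in both libraries, and as a set they stood at nearly the same level. Their FPKM values summed to 126.2 in the library labelled TGFBR3 OE and 115.1 in the library labelled control, with medians of 2.2 and 2.0. Their summed counts stood at 529 CPM, the share of all counts scaled to a common total (95% exact Clopper-Pearson interval 524 to 535), and 470 CPM (465 to 475). The log2 ratio of these summed shares was 0.17 (0.15 to 0.19), and relative to the median gene it was 0.04 (0.01 to 0.06). Tpx2 alone held the largest share of the difference: without it the sums were 478 and 446 CPM. A larger part of the cells in mitosis and more of these RNAs per dividing cell cannot be told apart in RNA of a whole culture. Intervals cover counting error only, since reads are not independent molecules and the spread between cultures was not measured.

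Each gene is given on 2 scales. The first is the log2 ratio of (FPKM + 1), TGFBR3 OE over control, which understates the change of genes with an FPKM near or under 1, and 12 of the 42 genes had a mean FPKM below 1. The second, added after the values were seen, is the plain log2 ratio of the counts, scaled by the totals that the FPKM values imply and taken relative to the median gene. That median was 0.15 over 10626 genes that reached an FPKM of 1 in each library, and the corresponding shift of log2(FPKM + 1) was 0.13. It is called the relative ratio below. Every one of the 42 genes had at least 72 counts in each library, so no value rests on a zero.

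On the log2(FPKM + 1) scale the 42 genes ran from −0.40 for Cdc20 to 0.97 for Tpx2, with a median of 0.12, against a median of 0.14 over the 11213 genes whose FPKM averaged 1 or more. Of the 42, 29 lay above 0, where 63.1% of the 11213 genes did, and 13 lay below 0, where 36.7% did. Only Tpx2 and Pttg1 passed 1.5-fold, both higher, and none was 1.5-fold lower; over the 11213 genes, 13.3% were 1.5-fold higher and 4.91% were 1.5-fold lower. None passed 2-fold, a threshold passed upward by 3.14% and downward by 1.03% of those genes. Among the 30 mitosis genes that met the same limit on FPKM as the background, the count past 1.5-fold was also 2. This count depends on the added 1: on the plain FPKM ratio, 13 of the 42 were 1.5-fold higher and none was 1.5-fold lower. That ratio is not centred on the median gene, whose plain log2 count ratio was 0.15, and no share over all genes is given for it. Relative to the median gene, 6 were 1.5-fold higher and 4 were 1.5-fold lower, as described next.

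The relative ratio showed a wider spread to both sides. It ran from −0.62 for Birc5 to 1.0 for Cenpe with a median of 0.09, and the median over the 13923 genes with at least 100 counts was 0.04. Of the 42 genes, 24 lay above 0 and 18 below, where the background was 53.4% and 46.6%. The counting interval lay wholly above 0 for 20 genes and wholly below 0 for 14, against 43.4% and 37.8% of the 13923 genes. On this scale 6 genes were at least 1.5-fold higher (Cenpe, Tpx2, Ndc80, Knl1, Ncapg and Bub1), where 16.7% of all genes were, and 4 were at least 1.5-fold lower (Birc5, Cenpa, Spc24 and Cdc20), where 12.1% were. With the trend over GC content removed (described below), Ndc80 (0.58), Knl1 (0.35), Ncapg (0.18), Bub1 (0.15), Spc24 (−0.57) and Cdc20 (−0.39) no longer passed 1.5-fold, while Kif2c (0.59) and Nuf2 (−0.76) did. Before that correction, mitosis genes thus lay on either side of the median gene in about the proportions of all genes. With the GC trend removed, 28 of the 42 lay below 0 and their median was −0.14, where the median of all genes was 0. The share of all genes below 0 after the correction is not given.

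**Figure D1:**
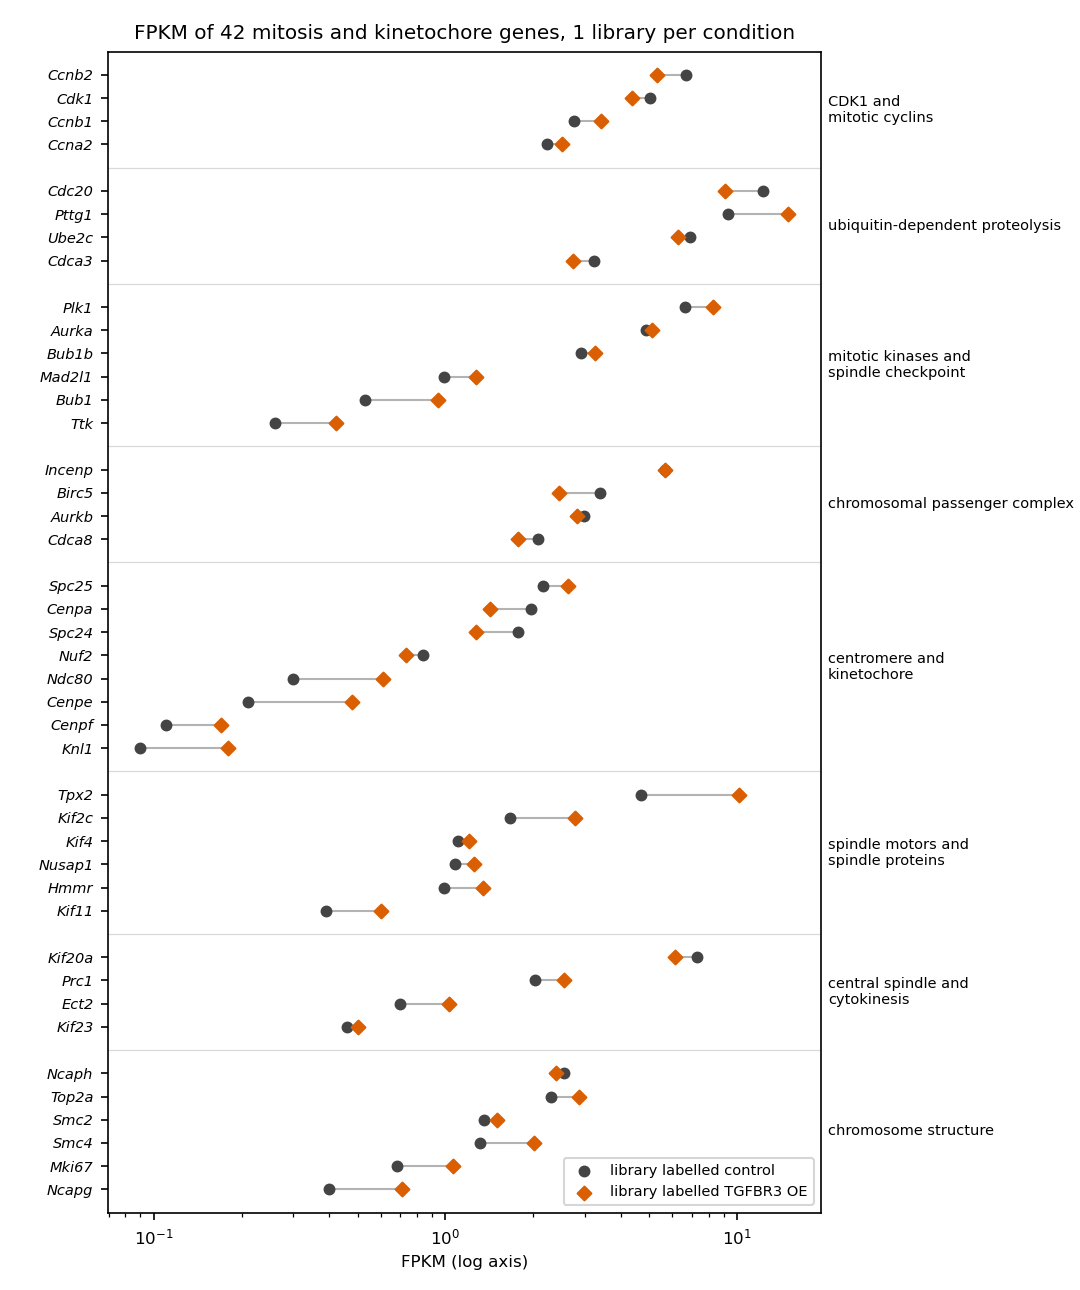
FPKM (log axis) of the 42 mitosis and kinetochore genes, grouped by role, in the library labelled control (circles) and the library labelled TGFBR3 OE (diamonds), with 1 library each and a line joining the values of a gene. Values ran from 0.09 for Knl1 to 15.0 for Pttg1, and most pairs lay close together, with the widest gaps at Tpx2, Cenpe and Ndc80.

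The order of the genes by level was much alike in the libraries. Pttg1 (15.0 FPKM), Tpx2 (10.1) and Cdc20 (9.07) were the highest in the library labelled TGFBR3 OE, whereas Cdc20 (12.3), Pttg1 (9.29) and Kif20a (7.29) led in the library labelled control. Cenpf and Knl1 were the lowest in both, at 0.17 and 0.18 against 0.11 and 0.09 FPKM. Across the 42 genes the log2 FPKM of the libraries correlated with a Pearson r of 0.97 and a Spearman rho of 0.96; the points are genes of the same pair of libraries and are no replicates. Tpx2 moved from rank 10 to rank 2, Kif2c from 24 to 15 and Birc5 from 11 to 20.

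The promoters of these genes are shown because most of those searched hold a sequence that the rule of choice did not name. The accounts that follow describe it for genes of G2 and M phase, so its presence in such a list is no independent result. In textbook accounts, genes of G2 and M phase carry a cell cycle genes homology region (CHR), TTTGAA or less often TTTAAA, close to the start of transcription, where the MuvB core binds together with B-MYB and FOXM1 in dividing cells or with p107 or p130 and E2F4 in resting cells. CCAAT boxes, bound by NF-Y, commonly lie before it. The RefSeq promoters searched (GRCm38.p6, from 250 bases before to 50 after the start) covered 35 of the 42 genes with 37 promoters, since Ect2 and Prc1 have 2 each. Smc4, Tpx2, Spc24, Incenp, Ccna2, Kif20a and Aurkb had no entry. In the 30-base windows below the hexamer is in capitals, TTTGAA as read on the gene's strand or its reverse complement TTCAAA. They are the 3 genes with the lowest and the 3 with the highest relative ratio among those with a match, followed by Cdk1 and Mki67.
Cenpa (chr5:30666890-30666919, plus strand): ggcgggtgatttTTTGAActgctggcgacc
Cdc20 (chr4:118437344-118437373, minus strand): agacagttgggtTTTGAAggagccaatgaa
Ccnb2 (chr9:70421533-70421562, minus strand): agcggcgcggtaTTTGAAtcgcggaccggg
Ndc80 (chr17:71526811-71526840, minus strand): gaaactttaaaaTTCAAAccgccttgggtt
Knl1 (chr2:119047138-119047167, plus strand): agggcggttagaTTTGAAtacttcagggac
Ncapg (chr5:45669883-45669912, plus strand): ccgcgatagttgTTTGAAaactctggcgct
Cdk1 (chr10:69352910-69352939, minus strand): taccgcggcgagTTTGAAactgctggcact
Mki67 (chr7:135716460-135716489, minus strand): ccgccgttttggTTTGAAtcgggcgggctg

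The hexamer TTTGAA, on either strand, was found in 28 of the 37 promoters (75.7%), and in 16.0% of 21263 promoters of protein-coding genes and 17.9% of all 32851 promoters. From 60 bases before to 50 after the start it was found in 26 of the 37 (70.3%), against 4.37% of the protein-coding promoters. The first base of the hexamer lay at position 17 in Cenpa, −18 in Cdc20, 5 in Ccnb2, 30 in Ndc80, 32 in Knl1, −30 in Ncapg, −15 in Cdk1 and −98 in Mki67, where 1 is the first transcribed base. Of 35 matches, counted once per promoter, 27 read TTTGAA on the strand of the gene and 8 on the other. The variant TTTAAA was in 24.3% of the members' promoters and 11.9% of the protein-coding ones. CCAAT, on either strand, was in 75.7% against 38.2%, at least 2 copies were in 51.4% against 12.8%, and TTTGAA together with CCAAT was in 67.6% against 6.38%. Matches of different motifs may overlap, and each was counted. The promoters of the members had a median GC content of 59.0%, against 56.3% for protein-coding genes.

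Other genes of mitosis held TTTGAA in 35 of 72 promoters (48.6%), DNA replication genes in 8 of 47 (17.0%) and genes of G1 cyclins, CDKs and their inhibitors in 3 of 21 (14.3%). The E2F motifs TTTGGCGC and TTTCGCGC, on either strand, were in 1 of 37 member promoters, that of Cdk1, in 12 of 47 promoters of DNA replication genes and in 1.05% of the protein-coding promoters. The 26 genes with TTTGAA had a median relative ratio of 0.15, with 15 above 0 and 11 below, and the 9 genes searched without it had a median of 0.15, with 6 above and 3 below. Among those 9, Birc5, Ccnb1 and Cenpe held the variant TTTAAA. Genes with the hexamer thus stood both among the lowest, such as Cenpa and Cdc20, and among the highest, such as Ndc80 and Knl1.

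**Figure D2:**
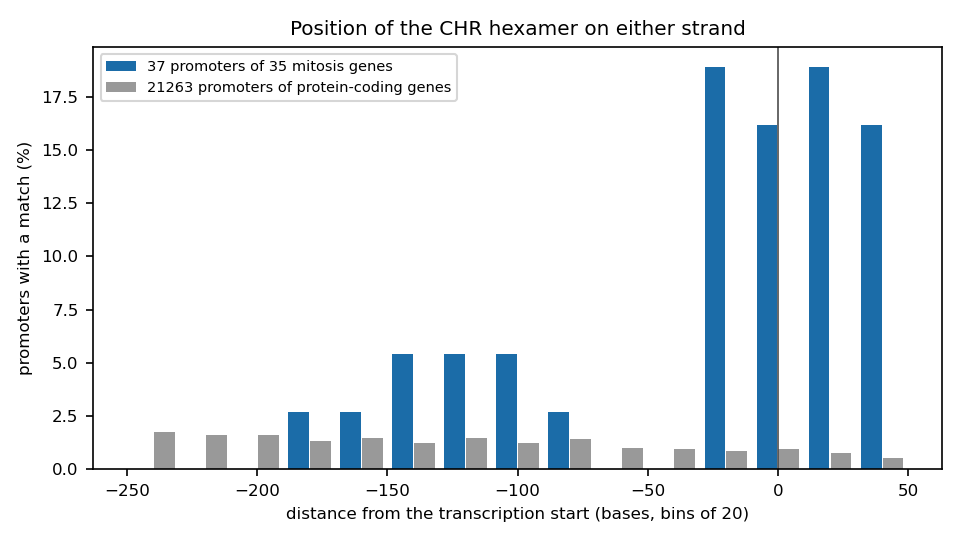
Share of promoters (percent) with TTTGAA on either strand, by the distance of its first base from the transcription start in bins of 20 bases, for 37 promoters of 35 mitosis genes (dark bars) and 21263 promoters of protein-coding genes (grey bars). In each bin from −30 to 50, 16.2% to 18.9% of the mitosis promoters held a match, the bin from −50 to −30 held none, and the grey bars stayed under 2% throughout.

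Before the GC trend was removed, Cdk1 and 3 mitotic cyclins did not move together. Ccnb2, a B cyclin found largely at the Golgi (ENSMUSG00000032218, chromosome 9 of mm10, 70407692 to 70421547, minus strand), had 5.30 FPKM in the library labelled TGFBR3 OE and 6.67 in the library labelled control, from 551 and 944 counts. The log2(FPKM + 1) ratio was −0.28 (95% CI −0.41 to −0.15) and its relative ratio was −0.49 (−0.64 to −0.33). Ccnb1, the B cyclin that drives entry into mitosis (ENSMUSG00000041431, chromosome 13, 100778650 to 100786570, minus strand), had 3.42 and 2.77 FPKM from 982 and 1083 counts, a log2(FPKM + 1) ratio of 0.23 (0.13 to 0.32) and a relative ratio of 0.15 (0.02 to 0.28). The B cyclins thus lay on opposite sides of the median gene, but with the GC trend removed both were below it, Ccnb1 at −0.13 and Ccnb2 at −0.54. The FPKM of Ccnb1 was 0.645 times that of Ccnb2 in the library labelled TGFBR3 OE and 0.415 times in the other. Ccnb1 shares 27.8% of its 31-base words with other genes, mainly its pseudogene Ccnb1-ps, so its counts are uncertain. Cdk1, the kinase they activate, had 4.35 and 5.01 FPKM and a relative ratio of −0.36 (−0.45 to −0.26). Ccna2, cyclin A2, which acts from S phase into early mitosis, had 2.51 and 2.23 FPKM and a relative ratio of 0.02 (−0.13 to 0.16), an interval that includes 0. It shares 12% of its 31-base words, mainly with Exosc9 on the opposite strand, so its counts are uncertain. With the GC trend removed Cdk1 was at −0.43 and Ccna2 at −0.18, below 0 like both B cyclins.

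Among the genes of ubiquitin-dependent proteolysis, securin was higher and the other 3 were lower. Pttg1, securin, the inhibitor of separase that is destroyed at anaphase (ENSMUSG00000020415, chromosome 11, 43420250 to 43426251, minus strand), had 15.0 FPKM in the library labelled TGFBR3 OE and 9.29 in the library labelled control, from 2038 and 1719 counts. This gave a log2(FPKM + 1) ratio of 0.64 (0.55 to 0.72) and a relative ratio of 0.54 (0.44 to 0.63), or 0.34 with the GC trend removed. Cdc20, the activator of the anaphase-promoting complex that marks securin for destruction (ENSMUSG00000006398, chromosome 4, 118432901 to 118437352, minus strand), had 9.07 and 12.3 FPKM from 1150 and 2125 counts, the lowest log2(FPKM + 1) ratio of the 42 genes at −0.40 (−0.50 to −0.31) and a relative ratio of −0.60 (−0.70 to −0.49). The FPKM of Pttg1 was 1.65 times that of Cdc20 in the library labelled TGFBR3 OE and 0.755 times in the library labelled control, so that their order was exchanged. Ube2c, the ubiquitin-conjugating enzyme of that complex, had 6.25 and 6.88 FPKM and a relative ratio of −0.29 (−0.40 to −0.18). Cdca3, an F-box-like protein also called TOME-1 that targets the kinase WEE1 for destruction, had 2.74 and 3.23 FPKM and a relative ratio of −0.39 (−0.55 to −0.23). Cdc20 shares 26.7% of its 31-base words with other genes, mainly Gm7856, and Ube2c shares 25.3%, mainly with Tnnc2 on the opposite strand, so both counts are uncertain.

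All 6 genes of the mitotic kinases and the spindle checkpoint had a log2(FPKM + 1) ratio above 0, and 5 of the 6 had a relative ratio above 0. The shares of all genes above 0 were 63.1% and 53.4%. The medians of the 6 genes were 0.18 and 0.19. Removal of the GC trend brought these medians to −0.06 and 0.05. Bub1, a checkpoint kinase of the outer kinetochore (ENSMUSG00000027379, chromosome 2, 127801122 to 127831865, minus strand), had 0.94 FPKM in the library labelled TGFBR3 OE and 0.53 in the library labelled control, from 280 and 217 counts. On the log2(FPKM + 1) scale Bub1 was at 0.34 (0.23 to 0.44) and its relative ratio was 0.66 (0.40 to 0.92). Aurka, the kinase of centrosomes and spindle poles (ENSMUSG00000027496, chromosome 2, 172356190 to 172370535, minus strand), had 5.09 and 4.88 FPKM from 877 and 1143 counts, a log2(FPKM + 1) ratio of 0.05 (−0.05 to 0.16) and a relative ratio of −0.09 (−0.22 to 0.04). Both of these intervals of Aurka include 0. Plk1, a kinase of mitotic entry, spindle assembly and cytokinesis, had 8.29 and 6.63 FPKM and a relative ratio of 0.17 (0.06 to 0.28), and it shares 18.7% of its 31-base words, mainly with Plk-ps1. Ttk, the kinase MPS1 that starts checkpoint signalling, had 0.42 and 0.26 FPKM from 140 and 118 counts and a relative ratio of 0.54 (0.17 to 0.90). With the GC trend removed the relative ratio of Ttk was 0.26. Bub1b encodes BUBR1 and Mad2l1 encodes MAD2, subunits of the inhibitor of the anaphase-promoting complex. Their relative ratios were 0.01 (−0.11 to 0.14) and 0.21 (0.06 to 0.36), which became −0.04 and −0.30 with the GC trend removed.

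The chromosomal passenger complex corrects faulty attachments at the inner centromere and later acts at the midzone. Its 4 genes had a median relative ratio of −0.30, or −0.31 with the GC trend removed. All 4 counting intervals lay below 0, as did those of 37.8% of the 13923 genes with at least 100 counts. Birc5, survivin (ENSMUSG00000017716, chromosome 11, 117849251 to 117855743, plus strand), had 2.45 FPKM in the library labelled TGFBR3 OE and 3.40 in the library labelled control, from 568 and 1070 counts. Birc5 had a log2(FPKM + 1) ratio of −0.35 (−0.46 to −0.24), and its relative ratio of −0.62 (−0.77 to −0.47) was the lowest of the 42. Incenp, the scaffold of the complex (ENSMUSG00000024660, chromosome 19, 9872296 to 9899551, minus strand), had 5.68 and 5.66 FPKM from 1670 and 2266 counts. Its log2(FPKM + 1) ratio was 0.00 (−0.07 to 0.08) and its relative ratio −0.15 (−0.24 to −0.06), which became 0.01 with the GC trend removed. Its position therefore depended on whether the median gene was taken as the reference. Aurkb, the kinase of the complex, had 2.83 and 2.99 FPKM and a relative ratio of −0.23 (−0.39 to −0.08). Cdca8, borealin, had 1.78 and 2.07 FPKM and a relative ratio of −0.37 (−0.52 to −0.22).

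The 8 centromere and kinetochore genes spread the most on the relative ratio, from −0.62 to 1.0. On log2(FPKM + 1) they ran only from −0.30 to 0.31, less widely than the genes of ubiquitin-dependent proteolysis, from −0.40 to 0.64. Cenpe, the kinesin that carries chromosomes to the metaphase plate, had 0.48 FPKM in the library labelled TGFBR3 OE and 0.21 in the library labelled control, from 281 and 172 counts, and the highest relative ratio of the 42 genes at 1.0 (0.72 to 1.28). On the log2(FPKM + 1) scale its ratio was only 0.29, because its FPKM lay under 1. Knl1, the scaffold that recruits the checkpoint proteins, had 0.18 and 0.09 FPKM from 105 and 72 counts and a relative ratio of 0.84 (0.39 to 1.29). Cenpf, a large coiled-coil protein of the outer kinetochore, had 0.17 and 0.11 FPKM and a relative ratio of 0.39 (0.08 to 0.71), which became 0.11 with the GC trend removed. Cenpa, the histone H3 variant that marks the centromere (ENSMUSG00000029177, chromosome 5, 30666777 to 30674830, plus strand), stood at the other end, with 1.42 and 1.97 FPKM from 570 and 1069 counts. Its log2(FPKM + 1) ratio was −0.30 (−0.38 to −0.20) and its relative ratio −0.62 (−0.77 to −0.47).

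The 4 subunits of the NDC80 complex, which form a rod between microtubule and inner kinetochore in equal numbers as proteins, did not keep a constant ratio to each other. Ndc80 (ENSMUSG00000024056, chromosome 17, 71496100 to 71526857, minus strand) had 0.61 FPKM in the library labelled TGFBR3 OE and 0.30 in the library labelled control, from 273 and 183 counts. This gave a log2(FPKM + 1) ratio of 0.31 (0.23 to 0.39) and a relative ratio of 0.87 (0.59 to 1.15). Nuf2, its partner at the microtubule end, had 0.73 and 0.84 FPKM from 313 and 492 counts and a relative ratio of −0.36 (−0.57 to −0.15). Spc24, at the inner end, had 1.27 and 1.77 FPKM from 225 and 422 counts and a relative ratio of −0.62 (−0.86 to −0.38), while its partner Spc25 had 2.63 and 2.16 FPKM and a relative ratio of 0.13 (−0.04 to 0.29). Within each pair of partners, the relative ratios lay apart by more than their counting intervals. The FPKM of Ndc80 was 0.836 times that of Nuf2 in the library labelled TGFBR3 OE and 0.357 times in the other. Exons of Ndc80 and Nuf2 have similar GC contents, 43.1% and 42.1%, and with the GC trend removed their relative ratios were 0.58 and −0.76. For Spc24 and Spc25, with GC contents of 52.0% and 44.5%, the corrected values were −0.57 and −0.15, so that both lay below 0 and closer together. Ndc80 shares 10.7% of its 31-base words with other genes, mainly 2700099C18Rik, and its counts are uncertain to that extent.

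**Figure D3:**
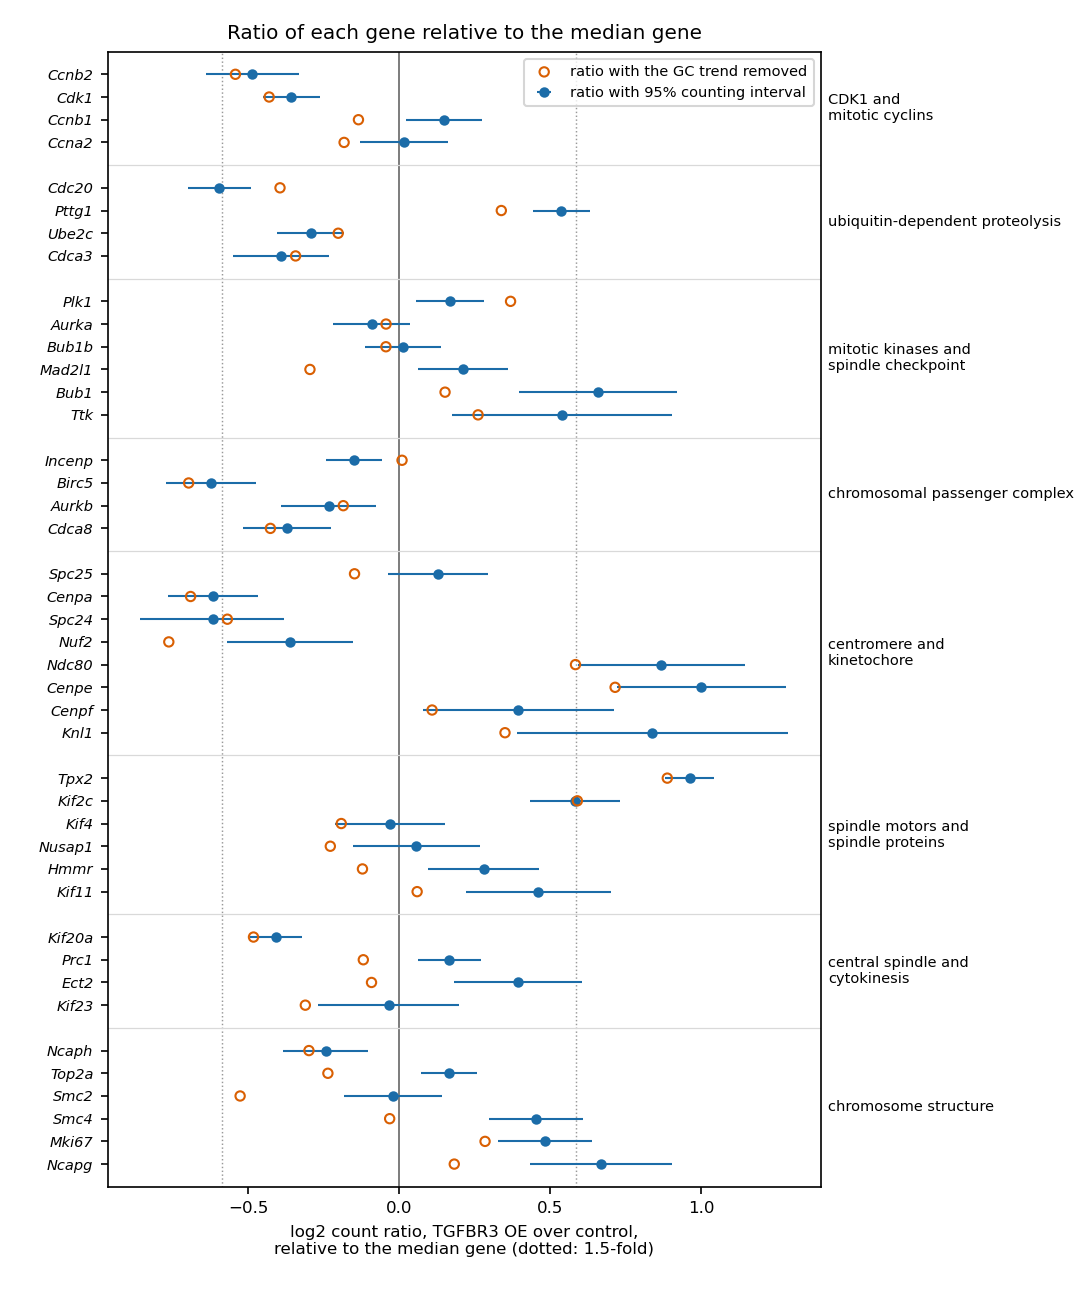
Relative ratio of the 42 genes, grouped by role: log2 count ratio, TGFBR3 OE over control, relative to the median gene, with 95% counting intervals (filled points and bars) and the value with the trend over GC content removed (open circles); dotted lines mark 1.5-fold. Tpx2 and Cenpe lay near 1.0, Birc5, Cenpa, Spc24 and Cdc20 near −0.60, and all 4 genes of the chromosomal passenger complex had filled points left of 0. Of the 13923 genes with at least 100 counts, 46.6% lay left of 0.

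All 6 spindle motors and spindle proteins had a log2(FPKM + 1) ratio above 0, and 5 of them had a relative ratio above 0. The shares of all genes above 0 were 63.1% and 53.4%. The medians of the 6 genes were 0.22 and 0.37, but with the GC trend removed they were −0.18 and −0.03. Tpx2, which activates Aurora A and nucleates microtubules around chromosomes (ENSMUSG00000027469, chromosome 2, 152847964 to 152895321, plus strand), had 10.1 FPKM in the library labelled TGFBR3 OE and 4.67 in the library labelled control, from 3218 and 2022 counts. Its log2(FPKM + 1) ratio of 0.97 (0.90 to 1.04) was the highest of the 42 genes, its relative ratio was 0.96 (0.88 to 1.04), and 0.89 remained with the GC trend removed. The FPKM of Tpx2 was 1.99 times that of Aurka, the kinase it activates, in the library labelled TGFBR3 OE and 0.957 times in the library labelled control. Tpx2 has no exon overlapped by another gene and shares 3.32% of its 31-base words. Kif2c, the microtubule depolymerase MCAK, had 2.78 and 1.67 FPKM from 825 and 675 counts and a relative ratio of 0.58 (0.43 to 0.73). Its value was nearly the same with the GC trend removed, at 0.59.

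The other spindle genes were closer to the median gene. Kif4 (ENSMUSG00000034311, chromosome X, 100625737 to 100727214, plus strand), a chromokinesin that also shapes the central spindle, had 1.20 and 1.10 FPKM from 448 and 560 counts. The log2(FPKM + 1) ratio of Kif4 was 0.07 (−0.03 to 0.16) and its relative ratio −0.03 (−0.21 to 0.15). It shares 15.7% of its 31-base words, mainly with Pdzd11 on the opposite strand. Kif11, the motor Eg5 that pushes the spindle poles apart, had 0.60 and 0.39 FPKM and a relative ratio of 0.46 (0.22 to 0.70). This became 0.06 with the GC trend removed. Hmmr and Nusap1 encode proteins that bind spindle microtubules, and their relative ratios were 0.28 (0.10 to 0.46) and 0.06 (−0.15 to 0.27). With the GC trend removed both were below 0, at −0.12 and −0.23.

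Of the 4 genes of the central spindle and cytokinesis, Ect2 had the highest and Kif20a the lowest ratio. Ect2, the exchange factor that activates RhoA at the division plane (ENSMUSG00000027699, chromosome 3, 27097222 to 27153878, minus strand), had 1.03 FPKM in the library labelled TGFBR3 OE and 0.70 in the library labelled control, from 379 and 353 counts. The log2(FPKM + 1) ratio of Ect2 was 0.26 (0.15 to 0.35) and its relative ratio was 0.39 (0.18 to 0.61), and −0.09 with the GC trend removed. Kif20a, the motor MKLP2 that carries the chromosomal passenger complex to the midzone (ENSMUSG00000003779), had 6.12 and 7.29 FPKM from 1803 and 2927 counts, a log2(FPKM + 1) ratio of −0.22 (−0.29 to −0.15) and a relative ratio of −0.41 (−0.49 to −0.32). Cdc23, on the opposite strand, overlaps 29.3% of the exonic bases of Kif20a, so its counts are uncertain. Prc1, which bundles antiparallel microtubules, and Kif23, the motor of centralspindlin, had relative ratios of 0.17 (0.06 to 0.27) and −0.03 (−0.27 to 0.20). With the GC trend removed these became −0.12 and −0.31. Prc1 shares 12.5% of its 31-base words, mainly with Rccd1.

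Among the genes of chromosome structure, 5 of 6 had a log2(FPKM + 1) ratio above 0 and 4 of 6 a relative ratio above 0. The shares of all genes above 0 were 63.1% and 53.4%. The medians of the 6 genes, 0.26 and 0.31, became −0.18 and −0.13 with the GC trend removed. Smc4, a subunit of both condensins (ENSMUSG00000034349, chromosome 3, 69004738 to 69034623, plus strand), had 2.01 FPKM in the library labelled TGFBR3 OE and 1.31 in the library labelled control, from 713 and 637 counts. Smc4 had a log2(FPKM + 1) ratio of 0.38 (0.28 to 0.47) and a relative ratio of 0.45 (0.30 to 0.61), whereas Smc2, its partner in the same ring, had 1.5 and 1.36 FPKM and a relative ratio of −0.02 (−0.18 to 0.14). The intervals of these partners did not overlap, but with the GC trend removed Smc4 was at −0.03 and Smc2 at −0.53, both below 0. Ncaph, a kleisin subunit of condensin I (ENSMUSG00000034906, chromosome 2, 127103809 to 127133954, minus strand), had 2.39 and 2.55 FPKM from 702 and 1016 counts, a log2(FPKM + 1) ratio of −0.07 (−0.16 to 0.04) and a relative ratio of −0.24 (−0.38 to −0.10). Ncapg, another subunit of condensin I, had 0.71 and 0.40 FPKM and a relative ratio of 0.67 (0.43 to 0.90), which became 0.18 with the GC trend removed. Its exons had the lowest GC content of the 42 genes, 36.1%, and it shares 12.5% of its 31-base words, mainly with Lcorl on the opposite strand. Top2a, the topoisomerase that untangles sister chromatids, had 2.86 and 2.30 FPKM and a relative ratio of 0.16 (0.07 to 0.26). This became −0.24 with the GC trend removed. Mki67, which encodes the proliferation marker Ki-67 of the chromosome surface, had 1.06 and 0.68 FPKM from 723 and 633 counts and a relative ratio of 0.48 (0.33 to 0.64). With the GC trend removed Mki67 was at 0.28.

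The relative ratio went with the base composition of the genes. Across the 42 genes the relative ratio correlated with the GC content of the exons at a Pearson r of −0.56 and a Spearman rho of −0.58, and across 13916 genes with at least 100 counts at −0.38 and −0.46. These are correlations over genes of the same pair of libraries, which share depth and library preparation. The 21 genes of lower GC content (36.1% to 46.2%) had a median relative ratio of 0.28, with 18 above 0, and the 21 of higher GC content (46.6% to 56.0%) had a median of −0.24, with 6 above 0. With the GC trend of all genes removed these medians were −0.12 and −0.20. Plk1, with the highest GC content of the 42 at 56.0%, and Kif2c, at 49.6%, lay above 0 with and without the correction. Nuf2, at 42.1%, lay below 0 both ways. The relative ratio also correlated with the exon length (r 0.44, rho 0.47; over all genes 0.13 and 0.19) and with the mean FPKM (r −0.27, rho −0.47; over all genes −0.09 and −0.21). Whether the GC content or the length of a gene changed its measured ratio was not tested.

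**Figure D4:**
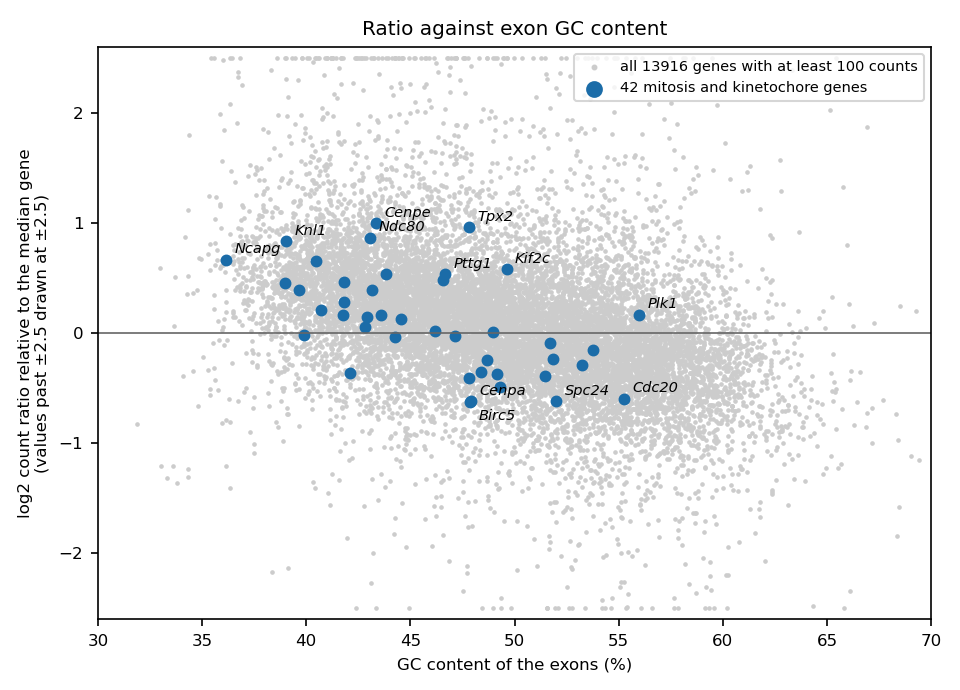
Relative ratio (log2 count ratio, TGFBR3 OE over control, relative to the median gene) against the GC content of the exons (percent), for the 42 mitosis and kinetochore genes (large points) and 13916 genes with at least 100 counts (small points). Ncapg, Knl1 and Ndc80 lay high at low GC content and Spc24 and Cdc20 low at high GC content, while Tpx2, Kif2c and Plk1 lay above the cloud's trend.

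Over 17 ways of scaling, filtering or correcting the values, of which 15 to 17 covered each gene, 13 genes were below 0 in every one: Cdk1, Ccnb2, Cdc20, Ube2c, Cdca3, Aurkb, Birc5, Cdca8, Cenpa, Nuf2, Spc24, Kif20a and Ncaph. Another 5, Pttg1, Plk1, Kif2c, Tpx2 and Mki67, were above 0 in every one. The remaining 24 fell on either side depending on the way. The 13 are the same genes that lay below 0 on log2(FPKM + 1). Centring on the median gene lowers every value by 0.13, and the filters on FPKM and shared sequence leave each value unchanged. The numbers on each side therefore depend on the ways chosen. All these ways use the same 2 libraries, and the share of all genes that kept 1 side is not given, so these counts have no background. The log2(FPKM + 1) counting intervals of Aurkb (−0.17 to 0.06), Nuf2 (−0.18 to 0.0002) and Ncaph (−0.16 to 0.04) included 0. Tpx2 kept values from 0.74 to 1.12 and Cdc20 values from −0.69 to −0.33, whereas Knl1 ran from −0.33 to 1.0 and Smc2 from −0.53 to 0.14.

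Other genes of the cell cycle were compared by the same counts. The 74 other genes of mitosis had a median log2(FPKM + 1) ratio of 0.09 and a median relative ratio of 0.08. On the first scale 4 genes were 1.5-fold higher and 1 lower, where 13.3% and 4.91% of all genes were. On the relative ratio they ran from −1.07 to 2.26, with 7 genes 1.5-fold higher and 4 lower, where 16.7% and 12.1% of all genes were. The extremes among them on the first scale were Spdl1 and Cks1b. Spdl1, which recruits dynein to kinetochores, was at 1.74 and 0.71 FPKM with a log2(FPKM + 1) ratio of 0.68 (0.56 to 0.79). Cks1b, a CDK-binding subunit, was at 17.5 and 28.1 FPKM with −0.65 (−0.74 to −0.56). Ska2, of the SKA complex that tracks microtubule ends, had 2.48 and 1.27 FPKM and 0.62 (0.50 to 0.74). The 48 genes of DNA replication had medians of 0.08 and −0.04. None passed 1.5-fold on log2(FPKM + 1), where the largest ratios were at Rfc1, Mcm4 and Mcm6 (0.46, 0.46 and 0.45). On the relative ratio 2 were 1.5-fold higher and 1 lower. The 20 genes of G1 cyclins, CDKs and inhibitors had medians of 0.04 and −0.11. On log2(FPKM + 1) the cyclin gene Ccnd2 (0.72) and Cdkn1a were 1.5-fold higher, and Rb1, which encodes the retinoblastoma protein, was at 0.51. On the relative ratio 1 gene was 1.5-fold higher and 2 were lower. With the GC trend of log2(FPKM + 1) removed, Spdl1 was at 0.36, Cks1b at −0.79 and Ska2 at 0.17. Rfc1, Mcm4 and Mcm6 were then at 0.18, 0.18 and 0.22, and Ccnd2, Cdkn1a and Rb1 at 0.56, 0.64 and 0.08.

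The 18 regulators of mitosis gene transcription had a median log2(FPKM + 1) ratio of 0.26 and a median relative ratio of 0.21, which became 0.04 with the GC trend removed. Foxm1, the forkhead factor of G2 and M genes, had 1.74 and 1.71 FPKM with a log2(FPKM + 1) ratio of 0.02 (−0.08 to 0.11), and Mybl2, B-MYB, had 0.92 and 0.82 FPKM with 0.08 (−0.03 to 0.18). Both intervals include 0. Cdkn1a, which encodes the CDK inhibitor p21, had 258 and 157 FPKM and 0.71 (0.69 to 0.73). Trp53, at 48.8 and 37.1 FPKM, had 0.39 (0.35 to 0.42), and the NF-Y subunit Nfyb, at 3.54 and 2.53 FPKM, had 0.36 (0.28 to 0.45). With the GC trend removed these log2(FPKM + 1) ratios were 0.64 for Cdkn1a, 0.40 for Trp53 and 0.05 for Nfyb. Cdkn1a was thus higher in the library labelled TGFBR3 OE while the summed mitosis genes stood near the median gene.

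**Figure D5:**
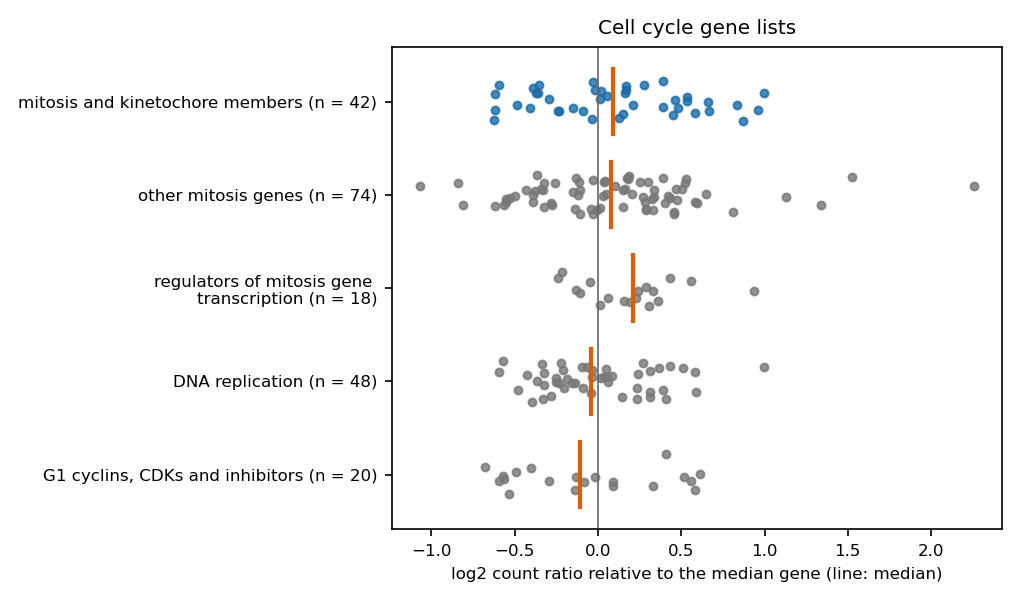
Relative ratio (log2 count ratio, TGFBR3 OE over control, relative to the median gene) of each gene in 5 cell cycle lists, with the median of each list as a line. The 42 mitosis and kinetochore genes (top, median 0.09) and the 74 other mitosis genes (0.08) lay on both sides of 0, and the medians of the remaining lists ran from −0.11 to 0.21.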

How the data were processed

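RNA of 1 library per condition was sequenced as paired reads of 150 nt from poly(A) RNA with a dUTP-marked second strand, per the labels; the strand setting of the counting is not given in the sources used here. The study's methods name STAR and FeatureCounts on mm10, whereas the submitters' processing notes name cutadapt 1.9, HISAT2 2.2.1, StringTie 2.1.6, DESeq2 and edgeR, so the aligner is uncertain. The authors deposited, per gene, a raw count and an FPKM, which is the count scaled by exon length and a library total. The counts summed to 62321027 and 83779203, which sets the width of the counting intervals. The design had foreseen FPKM as the main unit, and the counts served the intervals and the relative ratio.

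Values were computed with Python 3.11.15, pandas 2.3.3 and scipy 1.17.1. No count model was fitted and no p-value is given, since 1 library per group has no spread. Intervals are 95% exact Clopper-Pearson intervals of a gene's counts. Shares of all genes are given over genes whose FPKM averaged 1 or more, or with at least 100 summed counts. TMM factors came from edgeR 4.0.16 and size factors from DESeq2 1.42.0 in R 4.3.3. GC content, exon length, positions and shared 31-base words came from GENCODE M21 on mm10, which held 99.7% of the gene identifiers. GC trends were removed as medians of 20 bins. The calculations were tested on simulated counts. Coordinates of promoters are those of GRCm38.p6.

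All 42 genes could be named, with full values for the highest and lowest log2(FPKM + 1) ratio of each role and for genes past 1.5-fold. Other lists gave up to 3 genes of largest ratio with a mean FPKM of at least 1, and Foxm1, Mybl2, Cdkn1a and Tgfbr3 were added. Further markers (Pdgfra, Cdh5, Kdr and those at or near 0) were named after their values were seen. The genes, lists, tests and alternatives were chosen with earlier results of these data known. Pax7, Myod1 and Myf5 were not analysed here.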

Additional observations from a re-analysis of the deposited data

How the results depend on the processing

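No paired analysis was possible because each group is 1 library and the labels give no shared replicate numbers; for the same reason no library could be left out. With all 42 genes and log2(FPKM + 1), the median was 0.12, 13 genes were below 0, 2 passed 1.5-fold and 0 passed 2-fold. Smaller additions to the FPKM, which compress low genes less, gave medians of 0.23 (0.1 added), 0.25 (0.01) and 0.25 (none), with 7, 13 and 13 genes past 1.5-fold, all higher, and 1, 3 and 4 past 2-fold. CPM with 1 added gave 7 past 1.5-fold and 1 past 2-fold, and FPKM rescaled to a common sum gave 1 past 2-fold. None of these ratios is centred on the median gene, and no share of all genes is given beside these counts. Centring on the median gene gave a median of −0.0090, 23 below 0 and 1 past 1.5-fold. Counts scaled with TMM gave 0.026, 21 below 0 and 10 past 1.5-fold (6 higher, 4 lower), and median-of-ratios size factors gave −0.0063, 21 and 8 (4 and 4). Removing the GC trend gave −0.18, 36 and 1, and removing the exon length trend gave −0.047 and 23. Among alternatives chosen after seeing the data, the relative ratio gave 10 past 1.5-fold, its GC-corrected form −0.14, 28 and 6, and FPKM divided by the median gene's ratio 1. Of the settings from the centring to here, only the relative ratio has shares of all genes, given above. Whether the other counts differ from those of all genes cannot be read from them. With the threshold at 1.5-fold in place of 2-fold, 2 genes passed. The summed members stood at 529 and 470 CPM, without Tpx2 478 and 446, and over a total without the 50 highest genes 626 and 589. The filter at a mean FPKM of 1 (30 genes) and the removal of 10 genes that share sequence or exons gave 2 past 1.5-fold and 0 past 2-fold. Pttg1 and Tpx2, the genes past 1.5-fold on log2(FPKM + 1), stayed above 0 throughout. Cenpe, Ndc80, Knl1, Ncapg and Bub1 passed 1.5-fold on the relative ratio. With the GC trend of that ratio removed they stayed above 0, at 0.71, 0.58, 0.35, 0.18 and 0.15. On log2(FPKM + 1), which compresses low genes, removal of the GC trend put them at −0.053, −0.072, −0.33, −0.16 and −0.091. Over all 21364 genes with more than 3 counts in either library, 7.89% were 1.5-fold higher and 2.85% lower, against 13.3% and 4.91% over those whose FPKM averaged 1 or more. The counting intervals were widest for Knl1, Ttk and Cenpf.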
